A study of Mus musculus with 8 samples.

Results

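Secreted Wnt antagonists are proteins released by cells that keep Wnt ligands from signalling through the receptors Fzd and Lrp5 or Lrp6, and so lower the level of β-catenin and the activity of TCF/LEF transcription factors. Wnt signalling promotes the formation of osteoblasts (OBs) and bone, and several of these antagonists are made by the bone cells themselves. They act in different ways: Wif1, Sfrp1, Sfrp2, Sfrp4 and Frzb bind Wnt ligands, Sost (sclerostin, the osteocyte product) and Dkk1 and Dkk2 bind the Lrp co-receptors, Dkk3 is a divergent Dkk relative whose part in Wnt signalling is less clear, and Notum is an enzyme that removes the lipid that Wnt ligands need for activity. These 10 genes, of 31053 in the count tables, were chosen by symbol and followed across 3 stages of OBs and across the other cells of the parietal bone.

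The study collected single-cell RNA-seq libraries (10x Genomics, 3′) of parietal bone cells from mice of the strain B6.129(FVB)-Col1a2tm1Mcbr/J at P4-5, that is 4 to 5 days after birth. Of the 8 libraries, 4 were from wild-type animals (WT) and 4 from animals labelled Het G610C (Het), which carry 1 copy of an allele of Col1a2, the gene of the α2 chain of type I collagen, that models osteogenesis imperfecta. Each library pooled cells of up to 5 animals of 1 genotype, so p-values measured the spread between such pools. WT S1 and S2 and Het S3 and S4 were made with kit version 3, WT S5 and S6 and Het S7 and S8 with kit version 3.1. Both genotypes share the strain and age, and no further treatment was given in the labels.

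The cells were selected on measured UMIs (unique molecular identifiers, 1 per captured mRNA molecule). Of the cells with at least 500 genes and under 10% mitochondrial UMIs, OBs had 10 or more Col1a1 UMIs and, for 2 or more of the genes Runx2, Sp7 and Ibsp, no fewer than 2 UMIs each. Bglap, Ifitm5 and Alpl, osteoblast genes that the rule did not use, were detected in mOBs of each library. Their stages were ranges of the share of a cell's UMIs from Col1a1, named early (eOB, under 0.75%), differentiating (dOB, 0.75% to 3.5%) and mature (mOB, above 3.5%). Col1a1, Runx2, Sp7 and Ibsp therefore chose the cells and are not results. This gave 379 eOBs, 1217 dOBs and 1075 mOBs, beside 43749 other cells. A stage is a range and not a type, since 717 OBs lay between 1.75% and 3.5% and 602 between 3.5% and 7%, next to the mature limit. Levels are given as CPM, the UMIs of a gene per 1000000 UMIs summed over the cells of a group in 1 library, and a lower level in a sum can come from fewer cells with the transcript or from less of it per cell.

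The libraries held 30480239 to 85162035 UMIs in 3405 to 11368 kept cells, of which 133 to 821 were OBs. OBs were not alike across kits. Runx2, one of the selecting genes, was at 204 to 326 CPM in OBs of kit 3 and at 1994 to 2291 CPM in those of kit 3.1, and 309 of 861 OBs of kit 3 but 1557 of 1810 OBs of kit 3.1 held at least 3 markers of another cell class. The summed chondrocyte markers in eOBs were at 140 to 1987 CPM in kit 3 and at 5580 to 15162 CPM in kit 3.1. Kit was a term in each comparison of genotypes, and values within each kit are given beside the members' results. Pairs of libraries shared 1 to 24 cell barcodes, at most 0.558% of the smaller library.

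Promoter sequence is shown for 4 of the 6 members with a matched RefSeq window: Wif1, for its genotype difference in mOBs, and Dkk1, Sost and Dkk2, so that the start sites of genes with opposite courses over the stages can be set side by side. Each line is the stretch just before the annotated exon, from RefSeq on GRCm38, 5′ to 3′ on the strand of the gene, with capitals for the matches of the letters searched on both strands (CTTTGA and CTTTGT, cores of TCF/LEF sites, TGTGGT, the core of RUNX sites, and TATAAA). Bases inside a GENCODE exon were left out, and no window was matched for Dkk3, Sfrp1, Sfrp4 and Notum.
Wif1, chr10:121033754-121033959, plus strand: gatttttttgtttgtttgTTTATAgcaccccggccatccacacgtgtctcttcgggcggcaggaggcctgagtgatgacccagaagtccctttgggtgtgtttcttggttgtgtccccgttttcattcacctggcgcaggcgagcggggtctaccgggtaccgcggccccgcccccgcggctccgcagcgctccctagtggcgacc
Dkk2, chr3:132085042-132085291, plus strand: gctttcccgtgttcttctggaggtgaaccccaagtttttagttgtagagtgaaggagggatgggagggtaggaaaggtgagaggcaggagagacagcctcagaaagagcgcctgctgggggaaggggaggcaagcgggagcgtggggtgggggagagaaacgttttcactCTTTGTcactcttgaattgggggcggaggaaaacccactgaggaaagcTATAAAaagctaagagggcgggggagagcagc
Dkk1, chr19:30549666-30549746, minus strand: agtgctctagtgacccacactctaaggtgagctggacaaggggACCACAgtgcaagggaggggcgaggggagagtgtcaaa
Sost, chr11:101967016-101967265, minus strand: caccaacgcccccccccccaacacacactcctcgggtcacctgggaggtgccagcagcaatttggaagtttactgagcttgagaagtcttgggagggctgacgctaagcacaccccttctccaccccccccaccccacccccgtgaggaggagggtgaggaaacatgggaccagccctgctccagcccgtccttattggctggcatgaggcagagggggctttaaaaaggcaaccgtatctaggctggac
Dkk2 had CTTTGT, which 16.5% of the 32851 annotated windows of that length held, and TATAAA, which 12.4% held. Wif1 had TATAAA on the opposite strand, found in 9.38% of windows of its length, and Dkk1 had TGTGGT on the opposite strand, found in 4.83%. The Sost window held none of these letters. On this build, with GENCODE gene models, the gene bodies lay at chr10:121033960-121100650 for Wif1, chr3:132085292-132180304 for Dkk2, chr19:30545863-30549665 for Dkk1 and chr11:101962458-101967015 for Sost. Those of the others lay at chr7:112116017-112159057 for Dkk3, chr8:23411502-23449632 for Sfrp1, chr3:83766321-83774316 for Sfrp2, chr13:19623104-19632994 for Sfrp4, chr2:80411970-80447625 for Frzb and chr11:120653788-120661175 for Notum. Antisense genes overlap Sfrp2 and Notum.

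Dkk1, Sost and Dkk2, which bind Lrp co-receptors, differed in level between eOBs and mOBs. In each of the 8 libraries, the CPM of Dkk1 and of Sost was highest in mOBs and that of Dkk2 in eOBs. Dkk1 had 21 UMIs in 379 eOBs and 1429 in 1075 mOBs, and Dkk2 had 243 UMIs in eOBs and 35 in mOBs. Sost had 0 UMIs in 379 eOBs and 377 UMIs in 76 of 1075 mOBs.

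Dkk1 in mOBs was at 78.0 and 99.1 CPM in WT S1 and S2, 120 and 107 CPM in Het S3 and S4, 46.8 and 62.6 CPM in WT S5 and S6, and 58.2 and 84.2 CPM in Het S7 and S8. In eOBs of the same libraries, in the same order, it was at 6.17, 18.7, 4.14, 0, 2.34, 1.07, 0.89 and 2.79 CPM. Every library was thus higher in mOBs than any was in eOBs. The dOB values of 2.74 to 55.6 CPM reached into the range of mOBs in 1 library, WT S2. Among the marker classes outside OBs, mean Dkk1 was at most 1.69 CPM, in progenitor-like cells. In the 8809 other cells that fell in no class it was at 0.57 to 9.74 CPM, highest in Het S4.

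Sost was at 10.8 and 28.2 CPM in mOBs of WT S1 and S2, 38.0 and 31.5 CPM in Het S3 and S4, 13.5 and 9.57 CPM in WT S5 and S6, and 32.8 and 6.02 CPM in Het S7 and S8. In dOBs it had 6 UMIs in 1217 cells, and in eOBs 0 UMIs, where 3 UMIs would have been 2.31 to 14.7 CPM depending on the library. Its mean of 21.3 CPM in mOBs was separate from every other cell group in the range of libraries. It fell below the filter on low counts in the stage test and got no p.

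Dkk2 in eOBs was at 8.48 and 40.5 CPM in WT S1 and S2, 8.28 and 19.6 CPM in Het S3 and S4, 78.8 and 34.3 CPM in WT S5 and S6, and 51.9 and 61.3 CPM in Het S7 and S8. In mOBs it was at 1.80, 0, 2.0, 0.35, 1.80, 3.54, 0.52 and 3.01 CPM in the same order. The mOB range lay below the eOB range. In dOBs it was at 6.51, 0, 5.77, 8.39, 19.0, 17.1, 17.0 and 9.57 CPM, overlapping the range of eOBs, and of its UMIs in OBs 243 were in 57 eOBs, 312 in 103 dOBs and 35 in 17 mOBs. Dkk2 was also high in cells not selected as OBs, at a mean of 49.8 CPM in progenitor-like cells and 81.2 CPM in fibroblast-like cells. Summed progenitor markers were at 1473 to 2084 CPM in eOBs and 1032 to 9913 CPM in mOBs, and summed chondrocyte markers at 140 to 15162 CPM and 1092 to 2045 CPM. Mural (vessel wall) markers were higher in eOBs than in mOBs of each library, at 367 to 2010 CPM and 63.6 to 490 CPM. Endothelial markers were at 19.5 to 1734 CPM in eOBs, with 769, 824 and 1734 CPM in S5, S6 and S7, and at 3.01 to 35.3 CPM in mOBs. Markers of the remaining classes, fibroblast and erythroid among them, are not listed here. The part of any of these markers in the stage differences was not tested.

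Of the 7 members tested for mature against early OBs (edgeR quasi-likelihood test, library as a block, Benjamini-Hochberg over all genes), 5 passed an adjusted p of 0.05, beside 27.9% of all 9217 genes. Dkk1 and Dkk3 rose, 2 of 7, where 14.9% of all genes rose, and Wif1, Dkk2 and Sfrp4 fell, 3 of 7, where 13% of all genes fell. Dkk1 and Notum were below the filter on low counts in eOBs alone and Dkk2 in mOBs alone, so they entered this comparison through the stage where they are high, and the counts are a description from which nothing is read about the members as a group.

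**Figure D1:**
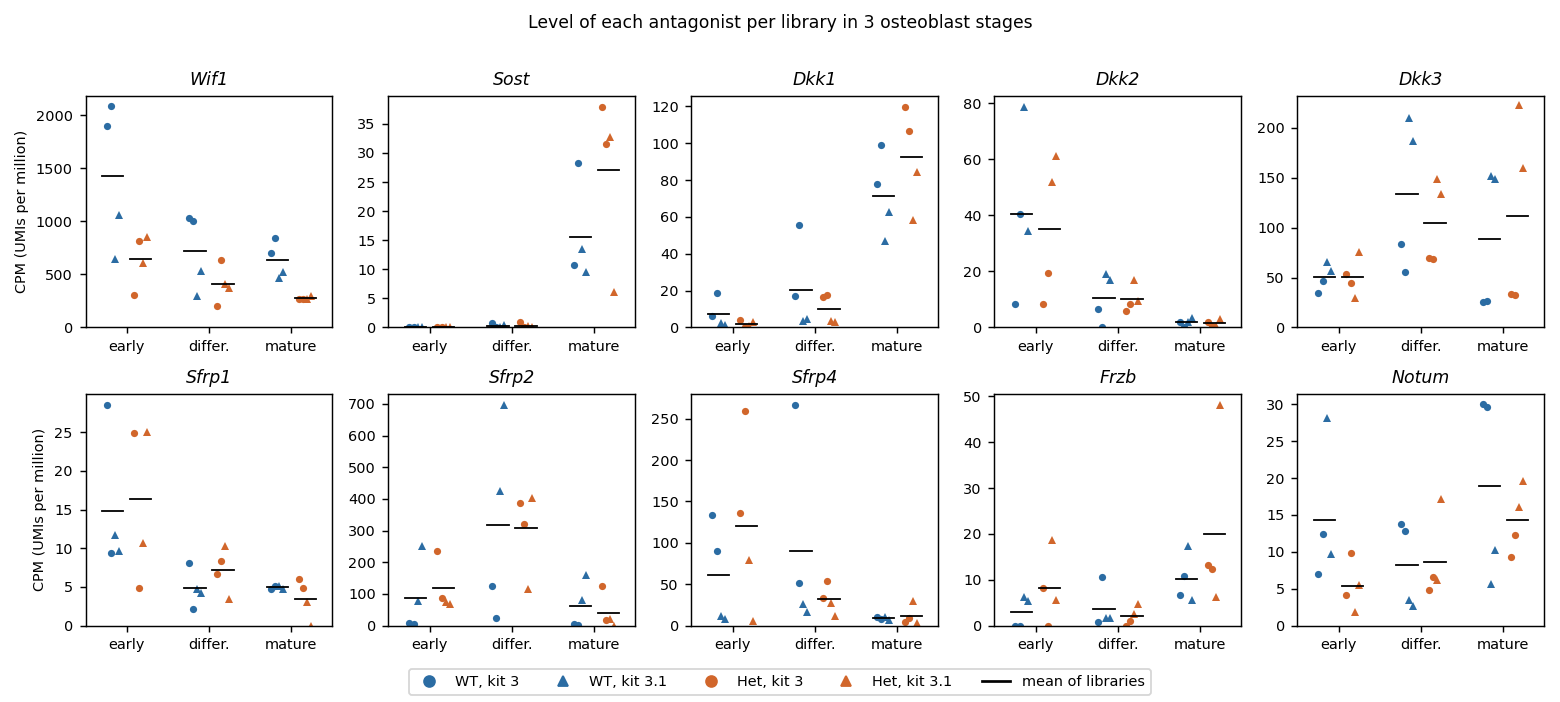
CPM of each of the 10 genes (y axis) in the 3 OB stages (x axis), 1 point per library, blue for WT and orange for Het, circles for kit 3 and triangles for kit 3.1, with a bar at the mean of each genotype. Dkk1 and Sost sit highest in mature OBs, Dkk2 and Sfrp4 in the earlier stages, and in mature OBs the 4 Het points of Wif1 lie together at 267 to 296 CPM, below all 4 WT points.

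Dkk3 followed another course. It rose from eOBs to mOBs by 1.22 ± 0.34 on the log2 scale (adjusted p = 0.0183), but its level differed between kits as well. In mOBs it was at 25.8, 26.8, 33.3 and 32.2 CPM in S1 to S4 (kit 3) and at 152, 149, 223 and 159 CPM in S5 to S8 (kit 3.1), with no overlap between kits. In eOBs it was at 34.7, 46.7, 53.8 and 44.1 CPM in kit 3 and at 65.5, 56.9, 29.5 and 75.2 CPM in kit 3.1. In CPM, each kit 3 library was lower in mOBs than in eOBs, and each kit 3.1 library was higher. With the TMM scaling of the test, the direction turned in S1 (35.3 in mOBs against 31.8 in eOBs) and S4 (42.1 against 40.9), but not in S2 or S3. The call was lost when S5 or S6 was left out (adjusted p = 0.05004 and 0.0629), with the stricter selection of OBs (0.0915), with other Col1a1 limits (0.0777) and without the OBs that held 3 or more markers of another class (0.0890). The progenitor markers moved with kit in the same cells, with summed levels of 1032 to 1326 CPM in mOBs of kit 3 and 6701 to 9913 CPM in kit 3.1, and their part in the Dkk3 difference was not tested.

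Among the antagonists that bind Wnt ligands, Wif1 and Sfrp4 fell with stage. Wif1 fell by 0.67 ± 0.15 on the log2 scale (adjusted p = 0.00506), from a mean of 1034 CPM in eOBs through 562 CPM in dOBs to 455 CPM in mOBs. Neighbouring stages overlapped in their libraries. The course of the means was not that of each library, since Het S3 and WT S5 were lowest in dOBs, and with the TMM scaling of the test Het S3 was higher in mOBs than in eOBs (358 against 286). The change did not pass with a looser selection of OBs (-0.13, adjusted p = 0.531).

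Sfrp4, an antagonist with a frizzled-like Wnt-binding domain, fell by 2.19 ± 0.50 on the log2 scale (adjusted p = 0.00518). In eOBs it was at 133, 90.3, 137 and 260 CPM in S1 to S4 and at 11.7, 8.59, 78.7 and 5.57 CPM in S5 to S8. In mOBs it was at 10.2, 7.96, 4.66 and 9.10 CPM in S1 to S4 and at 10.1, 6.87, 29.6 and 3.01 CPM in S5 to S8. The difference between stages was wide in each library of kit 3 and narrower in those of kit 3.1. With the TMM scaling of the test, the direction turned in WT S5 (10.3 in mOBs against 9.75 in eOBs) and WT S6 (7.01 against 6.83). The change did not pass with the looser selection (-1.25, adjusted p = 0.0931).

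Sfrp2, of the same family, had its highest OB level in between, with means of 102 CPM in eOBs, 313 CPM in dOBs and 51.9 CPM in mOBs. Its mature-against-early difference of -0.75 ± 0.35 (log2, SE) did not pass (adjusted p = 0.133). Notum, with 0.97 ± 0.53, did not pass either (adjusted p = 0.200). With 1 library left out its change was 0.56 to 1.89, and in edgeR it passed without S5 (adjusted p = 0.00183). It also passed in 2 of 6 other alternatives and changed sign in 1. Sfrp1 and Frzb were below the filter in this comparison.

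Over finer ranges of the Col1a1 share (below 0.25%, to 0.75%, to 1.75%, to 3.5%, to 7% and above), the members took different courses. Mean Dkk1 was 0.47, 6.72, 5.54, 13.7, 35.1 and 147 CPM, and mean Sost 0, 0, 0.32, 0.51, 5.65 and 47.8 CPM. Both were highest in the cells with most Col1a1. Mean Sfrp2 was 9.78, 135, 241, 423, 79.2 and 12.4 CPM, so that the mean was highest just below the mature limit, while S2 (with too few cells just below the limit), S5 and S7 were highest between 0.75% and 1.75%. Mean Dkk2 was 34.6, 42.9, 13.7, 10.8, 2.72 and 1.28 CPM, and mean Sfrp4 10.6, 118, 81.5, 31.5, 12.7 and 7.06 CPM. These means were highest between 0.25% and 0.75%, but Sfrp4 was highest between 0.75% and 1.75% in 4 of the 8 libraries (S1, S5, S6 and S8), and Dkk2 was highest between 1.75% and 3.5% in S1 and below 0.25% in S7. The means below 0.25% rest on the 4 libraries with enough cells there (S1, S5, S6 and S7).

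**Figure D2:**
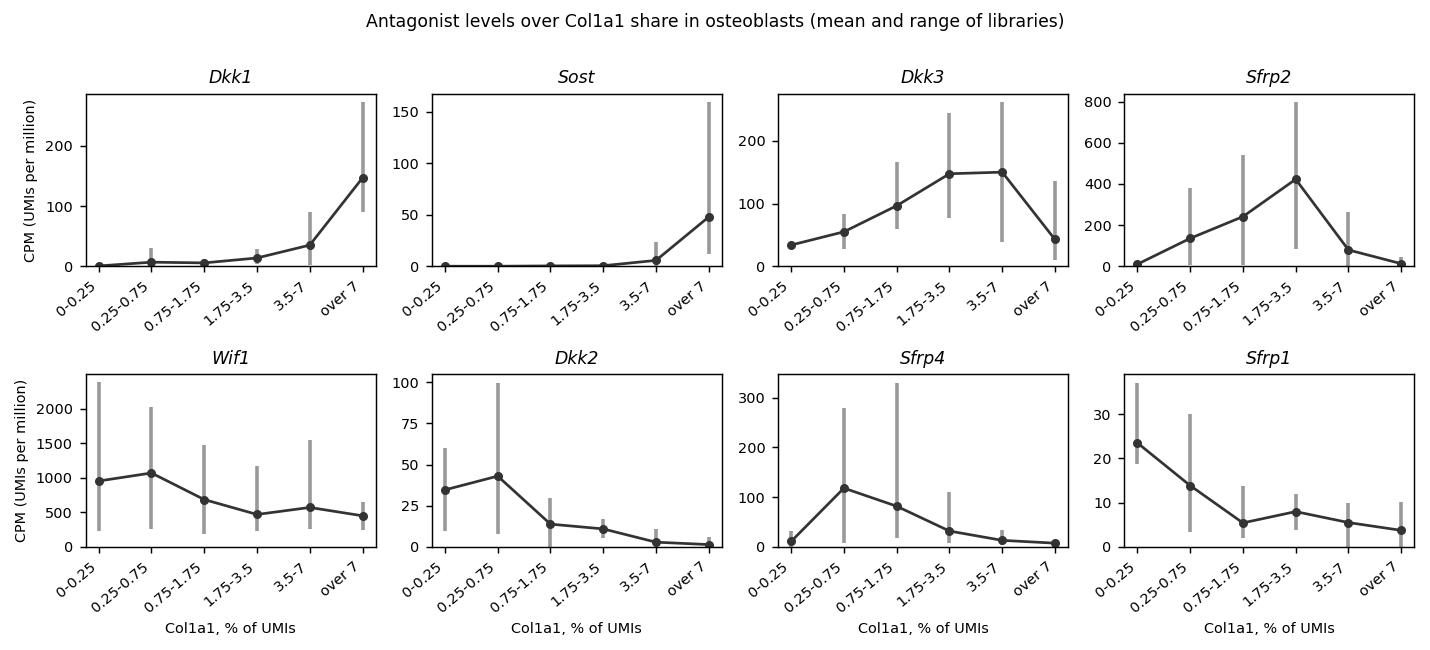
Mean CPM over libraries (y axis) of 8 of the genes in OBs by their Col1a1 share of UMIs in percent (x axis), with grey lines from the lowest to the highest library with at least 10 cells in that range. Dkk1 and Sost reach 147 and 47.8 CPM above 7%, Sfrp2 is highest at 423 CPM between 1.75% and 3.5%, and the ranges of libraries are wide for each gene.

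Within mOBs, Sost and Dkk1 were concentrated in cells with osteocyte markers. The mOBs were split by how many of 7 osteocyte markers had at least 2 UMIs, a list that holds no member. Of the 377 Sost UMIs, 349 were in the 160 cells with 3 or more markers, 9 in the 140 cells with 2 markers, 18 in the 270 cells with 1 and 1 in the 505 cells with none. Mean Dkk1 was 15.0, 47.3, 56.1 and 268 CPM in mOBs with 0, 1, 2 and 3 or more markers. Groups of 5 or more cells were kept in this split, and the 268 CPM includes 591 CPM from 8 cells of Het S7. Mean Dkk3 went the other way, at 141, 113, 65.9 and 20.5 CPM. Mean Wif1 was 421, 467, 550 and 485 CPM and stayed within the spread of libraries across this split.

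Across the other cells, classes were named "-like" from marker genes, and the 8809 cells in no class are left out of this comparison. Wif1 was at a mean of 233 CPM in progenitor-like cells and 155 CPM in chondrocyte-like cells, against 10.2 CPM in haematopoietic-like cells, taken here as the background. Mean Sfrp2 was highest in progenitor-like cells, which the marker lists did not set apart from OBs, at 1297 CPM, and in fibroblast-like cells, at 1206 CPM. Notum was highest in chondrocyte-like cells, at 40.4 CPM, separate from the next group, mOBs, at 16.6 CPM. Dkk3 was highest in progenitor-like cells, at 206 CPM, and Sfrp1 in fibroblast-like cells, at 61.1 CPM. Frzb stayed low, with means of 15.0 CPM in mOBs and 13.3 CPM in chondrocyte-like cells. Since classes were made with marker genes of the same cells, these levels are a description and were not tested. The fibroblast-like class had at least 10 cells in 3 libraries only.

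**Figure D3:**
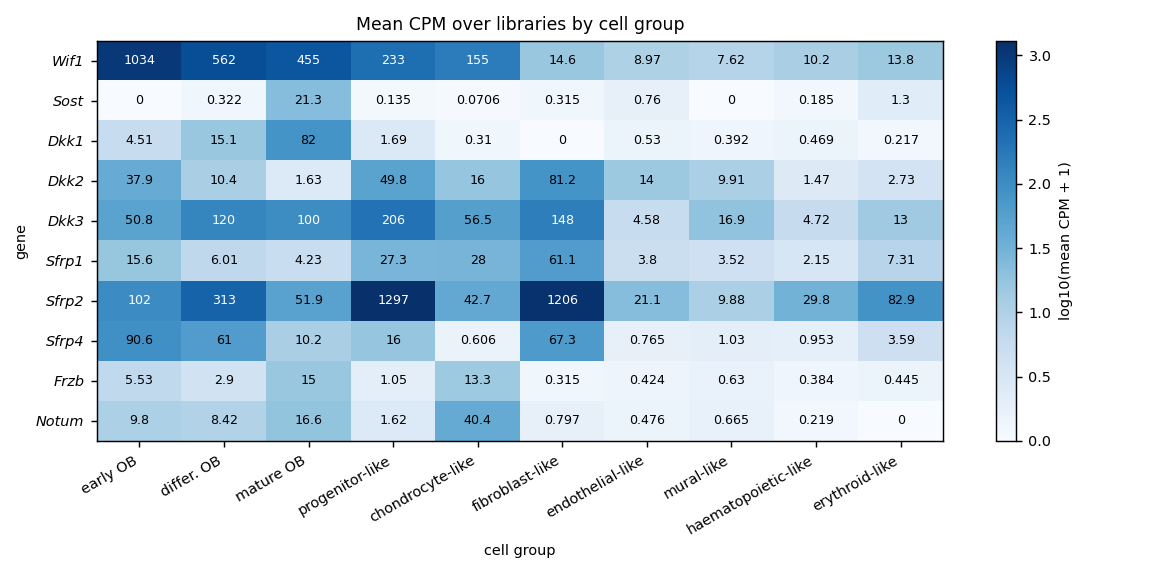
Mean CPM over libraries of the 10 genes (rows) in 3 OB stages and 7 marker classes (columns), with darker blue for a higher log10(mean CPM + 1). Wif1 is darkest in the OB stages (1034, 562 and 455 CPM), Sfrp2 in progenitor-like and fibroblast-like cells (1297 and 1206 CPM), and Dkk1 and Sost are highest in mature OBs (82.0 and 21.3 CPM).

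The comparison of Het with WT asks which antagonists differ in cells that make the mutant collagen. In mOBs, Wif1 was lower in Het, and it was the only one of the 8 members tested that passed. It was at 704 and 844 CPM in WT S1 and S2, 272 and 267 CPM in Het S3 and S4, 467 and 521 CPM in WT S5 and S6, and 268 and 296 CPM in Het S7 and S8. All 4 Het libraries lay below all 4 WT libraries, and the Het values were close to each other in CPM. With the TMM scaling of the test, Het was at 308, 301, 216 and 262 in S3, S4, S7 and S8. On that scale WT was at 835, 1012, 409 and 459 in S1, S2, S5 and S6, still above all Het libraries.

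The mean Wif1 level in mOBs was 634 ± 173 CPM in WT and 276 ± 13.9 CPM in Het (SD, n = 4 each), and it fell by 1.24 ± 0.16 on the log2 scale (SE, 95% interval -1.59 to -0.89). In edgeR with kit and genotype as terms, the adjusted p was 0.00523. The change was -1.60 within kit 3 and -0.86 within kit 3.1. Leaving out the OBs that held 3 or more markers of another class left 8 mOBs in Het S7 and 3 in Het S8, so that both dropped out and the comparison rested on kit 3 alone (-1.11 ± 0.19, adjusted p = 0.00148). In all, 0.509% of 9623 genes passed in mOBs, and 2.61% had groups of libraries that did not overlap, against 1 of 8 members by either measure. Without kit in the model the change was -1.32 and did not pass (adjusted p = 1.0).

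Wif1 was also compared between genotypes along the split by osteocyte markers. In mOBs with none of these markers, WT libraries were at 326 to 768 CPM and Het libraries at 205 to 329 CPM. With 1 marker they were at 453 to 914 CPM and 198 to 320 CPM, with 2 at 573 to 874 CPM and 228 to 678 CPM, and with 3 or more at 548 to 839 CPM and 215 to 464 CPM. The genotypes did not overlap in the cells with 1 marker or with 3 or more. Some of these groups were small. Het S8 had 5 cells with 2 markers, at the 678 CPM that overlapped WT, and 6 cells with 3 or more markers. Het S7 had 8 cells with 3 or more markers, at 464 CPM. Markers of other classes also differed between genotypes in mOBs. Summed mural markers were higher in all Het than in all WT libraries, at 63.6 and 111 CPM in WT against 270 and 230 CPM in Het (kit 3) and at 224 and 176 CPM against 324 and 490 CPM (kit 3.1), with 0 or 1 of the 6 markers at 0 UMIs, and mean Wif1 in mural-like cells was 7.62 CPM.

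Haematopoietic markers in mOBs were lower in Het within each kit, at 671 and 488 CPM in WT against 32.0 and 164 CPM in Het (kit 3) and at 17.8 and 9.57 CPM against 8.32 and 1.5 CPM (kit 3.1). Fibroblast markers were higher in Het within each kit, at 8.999 and 15.9 CPM in WT against 49.95 and 17.2 CPM in Het (kit 3) and at 38.7 and 32.7 CPM against 97.7 and 42.1 CPM (kit 3.1). Endothelial markers were higher in Het in kit 3 (12.6 and 11.6 CPM against 35.3 and 24.2 CPM) and overlapped in kit 3.1. Chondrocyte markers were at 1650 and 1390 CPM in WT against 1160 and 1153 CPM in Het of kit 3, lower in Het, and progenitor markers at 1131 and 1032 CPM against 1208 and 1326 CPM, higher in Het, while both overlapped in kit 3.1. The 7 osteoblast markers, which include the selecting genes, summed to 142166 and 132133 CPM in WT against 83264 and 106285 CPM in Het of kit 3, lower in Het, and to 91422 and 94730 CPM against 66021 and 103487 CPM in kit 3.1, overlapping. The part of these differences in the Wif1 result was not tested.

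In the other OB stages the Wif1 difference was less certain. In dOBs, WT libraries were at 1031, 1007, 297 and 534 CPM and Het libraries at 205, 640, 407 and 375 CPM, and the change was -0.69 ± 0.32 (log2, SE, adjusted p = 0.661). In eOBs, WT libraries were at 1899, 2093, 644 and 1060 CPM and Het libraries at 302, 818, 605 and 852 CPM, and the change was -1.07 ± 0.37 (adjusted p = 1.0). With 1 library left out, the change was -0.95 to -0.34 in dOBs and -1.37 to -0.69 in eOBs. The genotypes overlapped in both stages, and the change was larger within kit 3 (-1.29 and -1.85) than within kit 3.1 (-0.11 and -0.30). The difference of the Het effect between mOBs and dOBs, tested itself, was -0.48 ± 0.31 (adjusted p = 1.0).

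**Figure D4:**
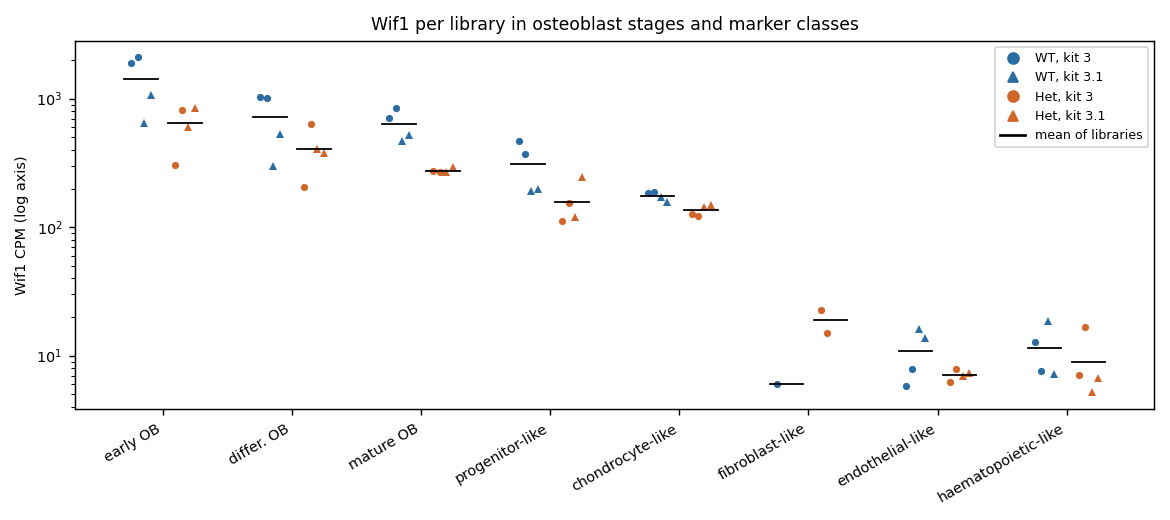
Wif1 CPM on a log axis (y axis) in OB stages and marker classes (x axis), 1 point per library, blue for WT and orange for Het, circles for kit 3 and triangles for kit 3.1, with a bar at the mean of each genotype. The 4 Het libraries lie below the 4 WT libraries in mature OBs (267 to 296 against 467 to 844 CPM) and in chondrocyte-like cells (123 to 150 against 157 to 187 CPM), and the genotypes overlap in the other groups with 4 libraries of each.

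The other members in mOBs did not pass. For Sost, Het against WT was 0.87 ± 0.32 on the log2 scale (adjusted p = 0.308, 0.75 within kit 3 and 0.65 within kit 3.1) with overlapping libraries. Few cells held these Sost UMIs, with 63 in 4 cells of Het S7 and 18 in 2 cells of WT S1. Het S8, with 4 UMIs in 1 cell, lay below both WT libraries of kit 3.1. For Dkk1, Het against WT was 0.26 ± 0.16 (adjusted p = 0.580, 0.28 and 0.34). The summed osteocyte markers were at 658 to 899 CPM in WT and 691 to 1377 CPM in Het mOBs, with Het above WT in kit 3 (1377 and 902 CPM against 658 and 899 CPM), and their part in the Sost and Dkk1 values was not tested. Dkk3 was at 0.28 ± 0.11 (adjusted p = 0.365, 0.24 within kit 3 and 0.28 within kit 3.1), Sfrp4 at 0.61 ± 0.45 (adjusted p = 0.683, -0.48 and 0.83) and Frzb at 0.64 ± 0.55 (adjusted p = 0.747, 0.47 and 1.24). Notum was at -0.38 ± 0.43 (adjusted p = 0.817) and Sfrp2 at -0.28 ± 1.05 (adjusted p = 0.966). With 1 library left out, the change was 0.50 to 1.19 for Sost, 0.16 to 0.39 for Dkk1, 0.16 to 0.36 for Dkk3 and -0.90 to -0.048 for Notum. Sost passed with no filter on low counts (adjusted p = 4.19e-04) and Dkk3 with a looser selection of OBs (adjusted p = 0.0460). The median change of the 8 was 0.27, against -0.00 over all genes. Dkk2 and Sfrp1 were below the filter.

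Notum in mOBs was at 29.9955 and 29.7 CPM in WT S1 and S2, 9.32 and 12.3 CPM in Het S3 and S4, 5.62 and 10.2 CPM in WT S5 and S6, and 16.1 and 19.6 CPM in Het S7 and S8. Het was lower than WT in kit 3 (-1.55 on the log2 scale) and higher in kit 3.1 (1.12). Sfrp1 in mOBs stayed at 0 to 5.99 CPM and Frzb at 5.62 to 48.1 CPM over the 8 libraries, with the highest Frzb value in Het S8.

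In dOBs 0 of 6 members passed, where 0.0101% of 9857 genes did. Of the 6, 1 had an unadjusted p under 0.05, Dkk3 (-0.34 on the log2 scale), beside 740 of all 9857 genes. The median change of the 6 members was -0.49, against -0.0049 over all genes. In eOBs 0 of 5 members passed, where 0% of 8118 genes did in edgeR, 309 genes had an unadjusted p under 0.05 and DESeq2 called 3 genes. Of the 5 members, Wif1 and Sfrp4 (1.32 ± 0.48 on the log2 scale) had an unadjusted p under 0.05. In the test of the genotype effect between mOBs and dOBs, 0 of 6 members and 0% of 9669 genes passed in edgeR, with 463 genes at an unadjusted p under 0.05 and 3 called by DESeq2.

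Sfrp2 differed between genotypes in opposite directions in the 2 kits, in each of the 6 groups of cells where it was tested, and the difference between kits was not tested. In mOBs it was at 6.60 and 1.45 CPM in WT S1 and S2, 127 and 17.2 CPM in Het S3 and S4, 81.0 and 160 CPM in WT S5 and S6, and 22.4 and 0 CPM in Het S7 and S8. The log2 change was 4.09 within kit 3 and -3.56 within kit 3.1. In haematopoietic-like cells, which serve as background, it was at 1.79 to 97.6 CPM, highest in Het S3 and next in Het S4 at 62.3 CPM. The 2 libraries that were higher in mOBs of kit 3 were thus also those with the most Sfrp2 in the background, and the part of free RNA in this was not tested.

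In chondrocyte-like cells, Sfrp1, which binds Wnt ligands, was higher in Het. It was at 26.1, 17.0, 19.2 and 20.4 CPM in WT S1, S2, S5 and S6 and at 38.3, 35.3, 36.3 and 31.3 CPM in Het S3, S4, S7 and S8, with no overlap. Means were 20.7 ± 3.89 CPM in WT and 35.3 ± 2.94 CPM in Het (SD, n = 4 each), a rise of 0.78 ± 0.10 on the log2 scale (95% interval 0.56 to 0.99, adjusted p = 0.0346). This was the 1 of 8 members that passed, where 0.0342% of 14637 genes did. In the same cells, fibroblast markers, of the class with the highest Sfrp1, were also higher in Het within each kit, summed to 71.7 and 58.4 CPM in WT against 74.0 and 102 CPM in Het (kit 3) and to 104 and 106 CPM against 120 and 111 CPM (kit 3.1). Haematopoietic markers were lower in Het in kit 3 (202 and 154 CPM against 41.4 and 49.5 CPM), and erythroid markers in kit 3.1 (1058 and 1246 CPM against 43.4 and 369 CPM). Osteoblast markers were higher in Het in kit 3 (1368 and 973 CPM against 2137 and 2049 CPM) and lower in kit 3.1 (3592 and 1724 CPM against 1332 and 1103 CPM). In 1 kit each, mural and chondrocyte markers were also higher in Het (kit 3.1), and progenitor (kit 3.1) and osteoclast markers (kit 3) lower. The part of these markers in the Sfrp1 result was not tested. The call was lost when any 1 library was left out, with changes of 0.71 to 0.84 and adjusted p from 0.0761 to 0.347. It was also lost without kit in the model, and with libraries blocked by the numbers in their titles in place of kit.

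Wif1 in chondrocyte-like cells was at 183, 187, 173 and 157 CPM in WT and 126, 123, 143 and 150 CPM in Het. The libraries did not overlap, as in 2 of 8 members against 1.48% of all genes, but the change of -0.35 ± 0.08 did not pass (adjusted p = 0.519). Notum, the enzyme with its highest level in these cells, was at 45.6, 33.5, 32.5 and 33.1 CPM in WT and 52.2, 33.4, 43.2 and 49.98 CPM in Het. Its groups overlapped, and the change of 0.39 on the log2 scale did not pass.

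In progenitor-like cells, Sfrp4 was lower in Het. It was at 49.3, 37.1, 8.92 and 6.49 CPM in WT S1, S2, S5 and S6 and at 15.2, 9.34, 0.88 and 0.65 CPM in Het S3, S4, S7 and S8, so that WT was higher than Het within each kit. The values of S7 and S8 are 3 and 1 UMIs, so the size of the change in kit 3.1 rests on almost no counts. The change was -1.97 ± 0.27 (log2, SE, 95% interval -2.57 to -1.37, adjusted p = 0.0491), and 1 of 6 members passed where 0.0418% of 11970 genes did. These cells held all 7 osteoblast markers at levels like those of dOBs, summed to 17466 to 28839 CPM against 20197 to 25146 CPM in dOBs, and their progenitor markers (3249 to 6613 CPM) were below those of kit 3.1 mOBs (6701 to 9913 CPM). These lists thus did not set progenitor-like cells apart from OBs. Osteoblast markers were higher in Het in kit 3 (17466 and 19930 CPM against 22997 and 26218 CPM) and lower in kit 3.1 (26119 and 28839 CPM against 24296 and 22056 CPM), chondrocyte markers were higher in Het within each kit (176 and 248 CPM against 310 and 344 CPM, then 626 and 579 CPM against 637 and 694 CPM), and haematopoietic markers were lower in Het in kit 3 (182 and 96.5 CPM against 45.9 and 42.8 CPM). Erythroid markers were also lower in Het in kit 3 (1098 and 3307 CPM against 503 and 986 CPM) and overlapped in kit 3.1. In 1 kit each, endothelial and osteocyte markers were higher in Het (kit 3) and osteoclast markers lower (kit 3.1). Mural markers were higher in Het within each kit, at 537 and 698 CPM in WT against 996 and 707 CPM in Het (kit 3) and 345 and 380 CPM against 685 and 432 CPM (kit 3.1). Fibroblast markers were lower in Het in kit 3 (185 and 157 CPM against 125 and 152 CPM) and higher in kit 3.1 (137 and 124 CPM against 334 and 205 CPM). The part of other cells in the Sfrp4 values was not tested. The call was lost without S1, S2, S4, S5, S6 or S8, with changes of -2.15 to -1.80 and adjusted p from 0.0513 to 0.272. Wif1 was at 471, 373, 190 and 198 CPM in WT and 111, 155, 119 and 247 CPM in Het, and its change of -0.90 ± 0.29 did not pass (adjusted p = 0.525).

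In the sum of all other cells, 0 of 9 members passed in edgeR, where 0% of 16502 genes did, while 4234 genes had an unadjusted p under 0.05 and DESeq2 called 1947. Het against WT was 1.70 ± 0.37 on the log2 scale for Sfrp1 (adjusted p = 0.154, 2.42 within kit 3 and 0.99 within kit 3.1), 1.55 for Notum (adjusted p = 0.169, 2.42 and 0.77) and 1.27 for Frzb (adjusted p = 0.167, 2.03 and 0.64), and all 3 were called by DESeq2. The mix of cells in this sum differed between libraries, with 142 to 6771 chondrocyte-like and 105 to 2380 haematopoietic-like cells per library, and its part in these values was not tested.

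**Figure D5:**
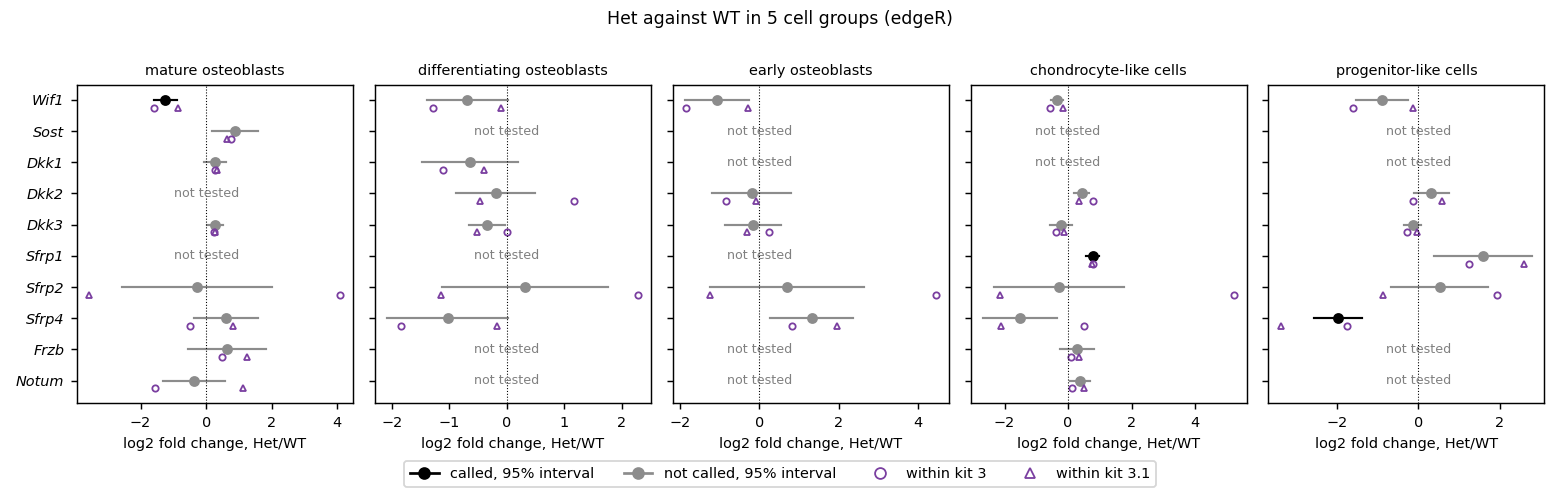
Log2 fold change of Het against WT (x axis) for each member (rows) in 5 cell groups, with the 95% interval of the edgeR fit, black where it was called and grey where not, and the values within kit 3 (circles) and kit 3.1 (triangles). Wif1 in mature OBs (-1.24), Sfrp1 in chondrocyte-like cells (0.78) and Sfrp4 in progenitor-like cells (-1.97) are called, and the kit values of Sfrp2 lie on opposite sides of 0.

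Of the other genes of the Wnt pathway, 70 of 71 listed ligands, activators, receptors, intracellular parts and targets were in the files. None was called for Het against WT by edgeR in any group. In mOBs 38 were tested and 8 had an unadjusted p under 0.05, beside 1088 of all 9623 genes. Lrp4, which anchors sclerostin, was at -0.74 ± 0.15 (log2, SE, adjusted p = 0.0578) and Lrp5, the Wnt co-receptor that sclerostin and Dkk1 block, at -0.96 ± 0.21 (adjusted p = 0.0709), and both are named here after their values were seen. Between mature and early OBs, 7 of 38 rose and 9 of 38 fell, beside 14.9% and 13% of all genes. Of the 5 with the lowest adjusted p (at most 4.58e-05), Lgr6, a receptor for R-spondins, rose by 1.72 ± 0.20 on the log2 scale. Tcf7, a TCF/LEF factor, rose by 2.43 ± 0.15, and Lef1, another, fell by 2.29 ± 0.28. Wisp1, a secreted target of the pathway, rose by 2.59 ± 0.18, and Rspo3, a secreted activator, fell by 2.97 ± 0.31.

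The genes with the most alike levels over 73 sums of a library and cell group, among 10060 genes, differed by member. These are Pearson correlations of levels that share libraries and depth, and they are given as a description. For Wif1 they were Mmp13 (r = 0.933), a collagenase, Enpp1 (r = 0.928) and Olfml3 (r = 0.895). For Dkk1 they were Col22a1 (r = 0.955), Car3 (r = 0.947) and Dlx3 (r = 0.936), and for Sost C430049E01Rik (r = 0.843), Col22a1 (r = 0.833) and Creb3l3 (r = 0.832). Col22a1, a collagen gene, was near both Dkk1 and Sost. Sfrp2 was nearest to Mfap4 (r = 0.913), Dkk3 to P4ha3 (r = 0.952), Notum to Trpv4 (r = 0.885), Sfrp1 to Cxcl14 (r = 0.809), Sfrp4 to Wisp2 (r = 0.783) and Dkk2 to Cdon (r = 0.771).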

How the data were processed

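The deposited files, made by the authors with Cell Ranger 5.0.0 (S1 to S4) and 6.0.1 (S5 to S8) per the file headers and with mm10 per the labels, hold raw UMI counts per gene and called cell. Kit and software version changed together and cannot be told apart. UMIs of the selected cells were summed per library and cell group, with no doublet caller run. Other cells were put in a class when at least 3 of its markers had 2 or more UMIs, at least 2 more than of any other class, and erythroid-like cells also needed 10% haemoglobin UMIs, a rule set after the data were seen. The members and lists were chosen with earlier results of these data known. All 10 members are named, and of the pathway list the 5 genes of lowest adjusted p, plus Lrp4 and Lrp5, which were picked after their values were seen.

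Sums were tested with edgeR 4.0.16 in R 4.3.3 (filterByExpr, TMM, quasi-likelihood test, two-sided), with kit and genotype as terms, or with library as a block for stages, and called at a Benjamini-Hochberg adjusted p under 0.05 over all genes tested, in libraries with at least 10 cells. The fit was run on simulated counts with the same spread for each gene and changes placed only in genes with higher counts. Members at a few UMIs and differences in the mix of cells are therefore not covered by that simulation. Alternatives were DESeq2 1.42.0, no filter, kit left out, a replicate block, other OB selections and limits, collagen UMIs left out of library sizes, and each library left out. Same-numbered titles gave correlations of deviations of -0.122 to 0.0752 and did not pair the libraries. The limit of 3 UMIs for a count of 0 covers counting error only.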

Additional observations from a re-analysis of the deposited data

Results flagged for a closer look

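In 66 sets of 4 libraries of a member, 8 held a library whose gap to the nearest of the others exceeded the 95% limit of Dixon's ratio for 4 samples, which chance passes in about 1 of 20 sets drawn from 1 distribution. Each set holds 2 libraries of each kit, so that this rate may not hold here. In mOBs of Het these were S8 for Wif1 (ratio 0.830, 296 CPM against 267 to 272 CPM) and S8 for Frzb (0.831, 48.1 CPM against 6.24 to 13.3 CPM). With the TMM scaling of the test, Wif1 in S8 (262) lay within the range of the other Het libraries (216 to 308). In dOBs of WT it was S1 for Sfrp4 (0.860, 267 CPM against 16.4 to 51.3 CPM), and in eOBs of Het S3 for Sfrp2 (0.889, 236 CPM against 69.6 to 88.2 CPM). In chondrocyte-like cells these were WT S1 for Dkk3 (0.838, 104 CPM against 43.9 to 53.6 CPM), Het S3 for Frzb (0.836, 5.36 CPM against 16.3 to 18.5 CPM) and WT S1 for Notum (0.927, 45.6 CPM against 32.5 to 33.5 CPM). In progenitor-like cells it was WT S1 for Sfrp1 (0.871, 38.9 CPM against 4.32 to 8.77 CPM). WT S1 was the library in 4 of the 8 sets.

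In some members, all Het libraries lay on 1 side of all WT libraries in kit 3 and on the other side in kit 3.1, and this difference was not tested. The share of all genes that switch sides in this way was not counted. With 2 libraries per genotype in a kit, such switches are a description from which nothing is read about the members. For Sfrp2 the log2 change of Het against WT within kit 3 and within kit 3.1 was 4.09 and -3.56 in mOBs, 2.28 and -1.15 in dOBs, 4.45 and -1.24 in eOBs, 5.23 and -2.16 in chondrocyte-like cells and 1.94 and -0.86 in progenitor-like cells. For Notum in mOBs it was -1.55 and 1.12. Notum also switched sides in dOBs, with 118 UMIs in all, at 13.8 and 12.8 CPM in WT against 4.81 and 6.52 CPM in Het of kit 3 and at 3.49 and 2.64 CPM against 6.17 and 17.1 CPM in kit 3.1, but it was below the filter there and was not fitted.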

How the results depend on the processing

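Wif1 in mOBs passed with each of the 8 libraries left out (log2 change -1.36 to -1.10, adjusted p 0.00168 to 0.0424) and in 8 of the 9 other alternatives, the exception being the fit without kit (adjusted p 1.0), while the one without mixed OBs, those with 3 or more markers of another class, compared genotypes in kit 3 alone. With the replicate block in place of kit it was -1.23 (adjusted p 0.0176). The block is made from the numbers in the titles, which did not pair the libraries, and it changed 1 call of a member, Sfrp1 in chondrocyte-like cells (0.77, adjusted p 0.0567). Of the values with 1 library left out, 312 kept direction and call, 16 lost the call, 1 gained it and 17 changed sign. Of those under the other alternatives, 245 kept both, 9 lost the call, 16 gained it and 16 changed sign. Their cause was not tested.

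Counts of members called moved as follows. With no filter on low counts they were 2 in mOBs (Wif1 and Sost), 2 in dOBs (Wif1 and Sfrp4, adjusted p 3.71e-04 and 2.94e-07), 2 in eOBs (Wif1 and Sfrp4, 1.17e-05 and 2.42e-04), 4 in progenitor-like cells (Sfrp4, Wif1, Sfrp1 and Sfrp2) and 10 between stages. Without kit in the model they were 0 in mOBs, 0 in chondrocyte-like cells and 0 in progenitor-like cells. With the looser OB selection mOBs had 2 (Wif1 and Dkk3), with DESeq2 all other cells had 3, and with the replicate block chondrocyte-like cells had 0. Between stages, 3 members passed with the stricter OB selection, 3 with the other Col1a1 limits (0.5% and 5%) and 2 without OBs holding 3 markers of another class. With 1 library left out the count was 0 in each fit of chondrocyte-like cells, 0 to 1 in progenitor-like cells and 4 to 6 between stages. Over all genes, 2575 of 9217 were called between stages in the main analysis and 2079 to 2365 with 1 library left out. These counts describe the fits, and nothing is read from them about the members. Wif1 did not pass between stages with the looser selection (-0.13, adjusted p 0.531), nor Sfrp4 (-1.25, adjusted p 0.0931), and Dkk3 lost its call with the stricter selection (adjusted p 0.0915), the other limits (0.0777), without mixed OBs (0.0890) and without S5 (0.05004) or S6 (0.0629).

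Changes in sign were in values that had not passed. For Sfrp2 the log2 change became 0.25 in mOBs and 1.45 in chondrocyte-like cells with DESeq2, 1.79 in chondrocyte-like cells without kit, 1.07 in mOBs and 0.76 between stages (adjusted p 0.0150) with the looser selection, -0.41 in dOBs and -1.69 in eOBs with the stricter one, 3.84 in mOBs and -0.95 in dOBs without mixed OBs, and 0.73 in mOBs and -0.58 in eOBs with the other limits. Others were Dkk2 in eOBs at 0.61 and Notum between stages at -0.044 with the looser selection, Sfrp4 in mOBs at -1.18 and the stage difference of the Wif1 effect at 0.0017 without mixed OBs, and Dkk1 in dOBs at 0.20 with the other limits. With 1 library left out, ranges were -1.66 to 0.64 for Sfrp2, -0.57 to 0.88 for Sfrp4 and -0.11 to 1.34 for Frzb in mOBs, -0.42 to 0.081 for Dkk2 and -0.26 to 1.07 for Sfrp2 in dOBs, -0.56 to 0.31 for Dkk2, -0.43 to 0.27 for Dkk3 and -0.23 to 1.70 for Sfrp2 in eOBs, -1.01 to 0.73 for Sfrp2 in chondrocyte-like cells and -0.036 to 0.48 for Dkk2 in progenitor-like cells.

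Over all genes in mOBs, 49 were called, against 130 with DESeq2, 536 with no filter, 0 without kit, 25 with the replicate block, 254 without mixed OBs, 82 with the other limits and 11 to 166 with 1 library left out. With DESeq2, 4 genes were called in dOBs (1 in edgeR), 3 in eOBs (0), 1947 in all other cells (0), 30 in chondrocyte-like cells (5) and 28 in progenitor-like cells (5), and with no filter 269, 141, 89, 12 and 363. Without mixed OBs, 12 were called in dOBs, 45 in eOBs and 1178 between stages (2575 in the main analysis). With few OBs per library, at least 22 eOBs and 42 mOBs, members at a few CPM rest on few UMIs. Left out of some fits were libraries with under 10 cells in a group, which leaves 6 libraries in mOBs and eOBs (without S7 and S8) and 7 in dOBs (without S7) when mixed OBs are left out. The mOB and eOB values without mixed OBs, the 45 genes called in eOBs among them, and the stage difference of the Wif1 effect thus compare genotypes in kit 3 alone. In eOBs the stricter selection dropped S3 and S4, the Het libraries of kit 3, and the other limits dropped S3.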
